A study of Homo sapiens with 60 samples.

Results

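The Glycyrrhizae Radix dose series consists of 9 of the 60 libraries of the study, 3 at each of 20, 100 and 500 µg/mL. They were chosen from the labels alone, as the libraries labelled with the water extract of this root (licorice). HT29, an established human colorectal adenocarcinoma line, had been exposed to the extract for 24 h, and messenger RNA was then sequenced. The other libraries came from 5 further herbal water extracts, 2 inhibitors of phosphoinositide 3-kinase (PI3K) and a vehicle. The 3 vehicle libraries carried 0.1% DMSO per their labels, while the series text gives 2%. They belong to another set of sample codes than the Glycyrrhizae libraries, and the meaning of the sets is not stated, so vehicle levels are given below as values only: exposure to the extract and code set cannot be told apart. Ginseng, an extract of Panax ginseng at the same 3 doses and in the same code set, served as the comparison series (9 libraries). Whether the 3 replicates of a dose were grown as separate cultures is not stated, so each p-value measures the spread between these libraries, which may be technical. HT29 is 1 tumour line in culture, without the liver and gut flora that convert licorice compounds in the body.

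Licorice root contains the triterpene saponin glycyrrhizin and many flavonoids. Glycyrrhetinic acid, the aglycone of glycyrrhizin, inhibits 11-beta-hydroxysteroid dehydrogenase 2 (HSD11B2), the enzyme that keeps cortisol away from the mineralocorticoid receptor in colon and kidney. Plant flavonoids and other aromatic compounds can act as ligands of the aryl hydrocarbon receptor (AhR), a transcription factor that drives CYP1A1. Electrophilic plant compounds can release NRF2 from KEAP1, and NRF2 then drives genes for glutathione synthesis and NADPH supply.

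The 9 libraries held 20431980 to 29409737 expected counts each. Epithelial markers were high in all of them, with KRT8 at 6395 to 6754 CPM (counts scaled to a common library size and composition) and EPCAM at 546 to 583 CPM, while the colonic factor CDX1 was low, at 0.368 to 1.22 CPM. ALB, CDH5, EMCN, CD3E, MS4A1 and SCGB1A1, markers of liver, endothelium, lymphocytes and airway, were at 0 in all 9. Of the marker lists for other cell types, 2 fibroblast, 2 endothelial, 4 leukocyte, 2 hepatocyte and 1 lung epithelial gene could be tested, and none of them was called. LYZ, at 1353 to 1603 CPM, and SERPINA1, at 361 to 446 CPM, were the most abundant of them. Transcripts encoded in mitochondria took 7.53%, 8.01% and 7.14% of the counts in replicates 1, 2 and 3 at 20 µg/mL. The shares were 8.62%, 7.95% and 8.48% at 100 µg/mL and 8.71%, 8.41% and 9.67% at 500 µg/mL. This share thus moved with dose, and its part in the results below was not tested; with these transcripts left out of the counts, the number of genes called in the dose trend was 609.

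The main question was which transcripts moved with the dose of the extract. A slope, the log2 change in level per 5-fold step of dose, was fitted to the 9 libraries for each of 15328 genes. At a Benjamini-Hochberg adjusted p under 0.05 (edgeR quasi-likelihood test), 610 genes were called, which is 3.98% of those tested: 323 (2.11%) rose with dose and 287 (1.87%) fell. The changes were small. The median slope of the called genes was 0.13 without regard to sign, 58 of them changed at least 1.5-fold between 20 and 500 µg/mL in the fit, and 20 changed at least 2-fold. ZACN alone reached 2-fold among those with a symbol, at least 5 CPM and no overlap of 500 and 20 µg/mL. Its value is uncertain, as given below. Protein-coding genes made up 575 of the 610. In bulk RNA, a lower level per cell and fewer cells that express a gene cannot be told apart.

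How many genes were called depended on single libraries. Without 500 replicate 3, which had the highest mitochondrial share, 117 genes were called, and without 20 replicate 3, which had the lowest, 172. The count was 250 without 500 replicate 1, 352 without 500 replicate 2 and 361 without 20 replicate 2, and it was 1155 without 20 replicate 1. Leaving out a library at 100 µg/mL gave 504 to 565. Of the 117 genes called without 500 replicate 3, 116 were among the 610, as were 547 of the 1155. The genes described with their values in each library below are, unless stated otherwise, among the 26 of 96 named genes that stayed called under each alternative tried. CYP1A1, 1 of the 26, had a result under only 15 of the 17 alternatives.

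**Figure D1:**
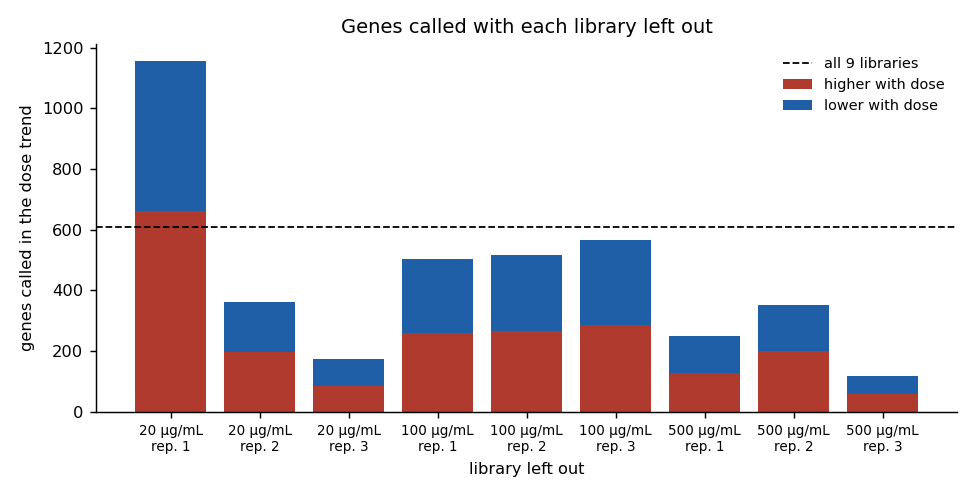
Number of genes called in the dose trend (vertical axis) with each of the 9 libraries left out in turn (horizontal axis); bars stack genes higher (red) and lower (blue) with dose, and the dashed line marks the 610 genes called with all 9 libraries. The lowest bar, 117, is without 500 replicate 3 and the highest, 1155, without 20 replicate 1.

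The upper step of dose carried more of the change than the lower one. Among the 610 called genes, the mean at 100 µg/mL lay between those at 20 and 500 µg/mL in 600, and the step from 100 to 500 µg/mL was the larger one in 494. The median step, taken in the direction of the trend, was 0.16 on the log2 scale from 100 to 500 µg/mL and 0.09 from 20 to 100 µg/mL. These genes were chosen by the trend, so both medians are a description. Tested directly, 39 genes (0.254%) differed between 500 and 100 µg/mL, 20 higher and 19 lower, of which 31 were also called in the trend. No gene was called between 100 and 20 µg/mL with edgeR, although 511 had an unadjusted p under 0.05; DESeq2 called 2. Between 500 and 20 µg/mL, 565 genes (3.69%) were called, 288 higher (1.88%) and 277 lower (1.81%), of which 528 were also called in the trend.

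These counts moved with single libraries as well. For 500 against 100 µg/mL the count was 8, 20 and 7 without 500 replicates 1, 2 and 3, 5 and 6 without 100 replicates 2 and 3, 24 without 20 replicate 2 and 87 without 20 replicate 1. For 500 against 20 µg/mL it was 278 and 115 without 500 replicates 1 and 3, 217 and 131 without 20 replicates 2 and 3, and 955 without 20 replicate 1. For 100 against 20 µg/mL it was 4 without 500 replicate 1, 3 without 20 replicate 1, and 1 and 2 without 100 replicates 1 and 2. Whether the upper and lower steps of a gene differed in size was tested as curvature, and 1 gene (0.00652%) passed, with 479 at an unadjusted p under 0.05. It was ARHGAP19-SLIT1, a readthrough of 2 neighbouring genes that shares exons with ARHGAP19. It stood at 1.48, 0.576 and 1.32 CPM at 100 µg/mL and at 0 in the 6 other libraries, and it was not called without 100 replicate 1 or 3, where the count was 0.

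**Figure D2:**
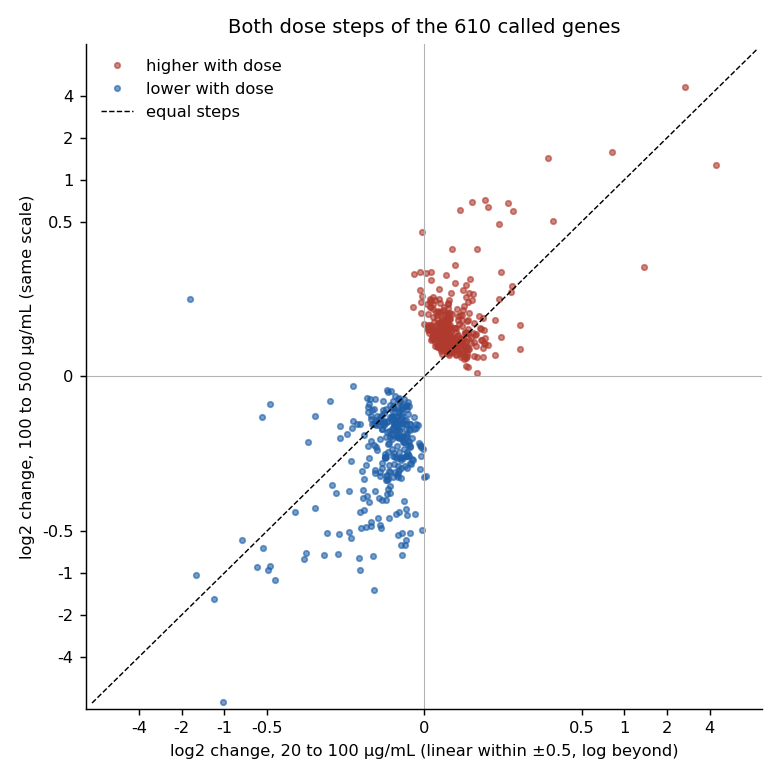
Log2 change from 20 to 100 µg/mL (horizontal axis) against that from 100 to 500 µg/mL (vertical axis) for the 610 genes called in the dose trend, red for higher and blue for lower with dose; both axes are linear within ±0.5 and logarithmic beyond, and the dashed line marks equal steps. For 494 genes the upper step is the larger one in the direction of the trend.

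Genes of foreign-compound metabolism were among those that rose. The AhR regulates the cytochrome CYP1A1, the aldehyde dehydrogenase ALDH3A1, several UDP-glucuronosyltransferases of the UGT1A locus and the efflux pump ABCG2. Of 15 tested genes on the list of AhR targets, 6 rose and none fell, beside 2.11% of all genes that rose, and 13 slopes were positive. The median slope of the list was 0.11, against -0.00 over all genes tested.

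CYP1A1 (chr15:74719542-74725610, minus strand, GRCh38), which oxidises polycyclic aromatic compounds, had 0.654, 0.838 and 0.882 CPM at 20 µg/mL, 1.04, 1.08 and 1.03 at 100 µg/mL and 1.91, 3.60 and 3.08 at 500 µg/mL. Each dose lay above the one below it without overlap, and the spread was widest at 500 µg/mL. The slope was 0.98 ± 0.139 (SE), a fitted 3.88-fold rise from 20 to 500 µg/mL (adjusted p = 0.0033). Vehicle stood at 2.10 ± 2.40 CPM (SD, n = 3), so the level at 500 µg/mL was within the spread of vehicle.

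ALDH3A1 (chr17:19737984-19748943, minus strand) oxidises aromatic and lipid aldehydes. Its levels were 29.6, 26.4 and 28.1 CPM at 20 µg/mL, 31.0, 30.7 and 29.2 at 100 µg/mL and 47.3, 47.3 and 43.8 at 500 µg/mL. The 20 and 100 µg/mL libraries overlapped, and the 500 µg/mL libraries lay well above both. The slope was 0.36 ± 0.0438 (adjusted p = 0.00219), and 84.3% of the fitted change fell in the upper step, which was called by itself at 0.60 ± 0.0561 (adjusted p = 0.000272). Vehicle stood at 28.7 ± 0.714 CPM, close to the 20 µg/mL libraries.

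The other called AhR targets were NQO1, described with the NRF2 list below, UGT1A1 with a slope of 0.13, UGT1A10 with 0.09 and ABCG2 with 0.14. UGT1A1 glucuronidates bilirubin, and both UGT1A1 and UGT1A10 glucuronidate many drugs. They share their last exons with the other genes of the UGT1A locus, so that reads may have been split among them and their values are uncertain. UGT1A8, of the same locus, was not called in the trend (adjusted p = 0.0985) but stood at 69.1, 71.0 and 69.1 CPM at 20 µg/mL, 64.2, 64.6 and 66.4 at 100 µg/mL and 77.8, 83.0 and 82.4 at 500 µg/mL; it was chosen after its values were seen. CYP1B1, AHRR, the AhR repressor, and TIPARP, an enzyme that restrains the AhR, were not called, with slopes of -0.07, 0.11 and 0.01. The count of AhR targets called was 3 without any 1 of the 3 libraries at 500 µg/mL and 4 without 20 replicate 2. Without 500 replicate 1, 2 or 3 UGT1A1 was not called; ABCG2 was called only with all libraries at 500 µg/mL and with 20 replicates 1 and 2, and UGT1A10 only with all libraries at 500 µg/mL, 100 replicates 1 and 2, and 20 replicates 2 and 3.

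Part of the NRF2 response rose. Of 29 tested genes for antioxidant defence and NADPH supply, 8 rose and none fell, beside 2.11% of all genes that rose. In this list 28 slopes were positive, with a median of 0.11. In 15 of the 29 all 3 libraries at 500 µg/mL lay above all 3 at 20 µg/mL, beside 11.6% of all genes tested. The genes that rose included AKR1B10, SLC7A11, GCLM, NQO1, EPHX1, ME1 and GSR. The median step from 20 to 100 µg/mL was 0.00 over the list, and that from 100 to 500 µg/mL 0.18.

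AKR1B10 (chr7:134527592-134541408, plus strand), an aldo-keto reductase that reduces retinal and lipid aldehydes, had 98.3, 96.2 and 99.6 CPM at 20 µg/mL, 103, 94.7 and 95.1 at 100 µg/mL and 142, 132 and 131 at 500 µg/mL. The lower doses overlapped and the highest stood apart. The slope was 0.23 ± 0.0393 (adjusted p = 0.00815), and the change from 100 to 500 µg/mL was 0.47 ± 0.0438 (adjusted p = 0.000272). In vehicle the level was 96.6 ± 5.16 CPM. The paralogs AKR1C1, AKR1C2 and AKR1C3, whose sequences are near-identical and whose reads may therefore be divided uncertainly, had slopes of 0.22, 0.18 and 0.12 and were not called (adjusted p = 0.0608, 0.0978 and 0.136; the last 2 genes were chosen after their values were seen).

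SLC7A11, the cystine importer that feeds glutathione synthesis, stood at 142, 141 and 139 CPM at 20 µg/mL, 151, 143 and 134 at 100 µg/mL and 188, 175 and 179 at 500 µg/mL. All of the separation lay between 100 and 500 µg/mL, where the change was 0.34 ± 0.0448 (adjusted p = 0.00626). NQO1, a quinone reductase and a classic NRF2 target, had 481, 497 and 518 CPM at 20 µg/mL, 529, 505 and 507 at 100 µg/mL and 612, 599 and 576 at 500 µg/mL. Its slope was 0.13 ± 0.0227 (adjusted p = 0.00848), a fitted 1.19-fold rise, and vehicle stood at 470 ± 35.2 CPM.

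GCLM, the modifier subunit of the enzyme that limits glutathione synthesis, had 64.9, 68.3 and 66.5 CPM at 20 µg/mL, 72.7, 66.3 and 63.5 at 100 µg/mL and 92.7, 79.9 and 79.3 at 500 µg/mL (slope 0.17 ± 0.0362, adjusted p = 0.0199). Replicate 1 was the highest at 500 µg/mL, and GCLM was not called without 500 replicate 1 or 3 or without 20 replicate 3. HMOX1, heme oxygenase and another NRF2 target, had 11.97, 10.7 and 9.84 CPM at 20 µg/mL, 11.8, 9.91 and 10.6 at 100 µg/mL and 14.5, 12.3 and 11.5 at 500 µg/mL. Its groups overlapped and it was not called (adjusted p = 0.216). The number of list members called was 4 without 500 replicate 1 or 3, 5 without 20 replicate 3 and 16 without 20 replicate 1. It was 17 with no filter on low counts or with a replicate block, and 13 with linear dose.

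The antioxidant response element to which NRF2 binds was searched as TGACNNNGC on both strands, in the 250 bases before the start of 10790 tested genes that matched a RefSeq promoter by symbol (GRCh38.p14). It was found in 12.3% of them, in 13.8% of 246 genes that rose and in 5 of 20 genes of the NRF2 list. GCLM held 1 match, and its 120 bases before the start (chr1:93909431-93909550, minus strand) are shown because the match, in capitals and 34 bases before the start, lies in a gene that rose; a match is a run of letters, not a measured site.
GCLM: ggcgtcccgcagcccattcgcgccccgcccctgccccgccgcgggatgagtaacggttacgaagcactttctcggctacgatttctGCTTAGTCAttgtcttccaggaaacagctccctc
No match was found in the same window of NQO1. The core that the AhR binds, TNGCGTG, was in 6.07% of all promoters and in 3 of 12 genes of the AhR list, none of them among the 4 called genes with a promoter, CYP1A1 included. Sequence further upstream was not searched, so these misses do not show that CYP1A1 or NQO1 lack such sites.

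**Figure D3:**
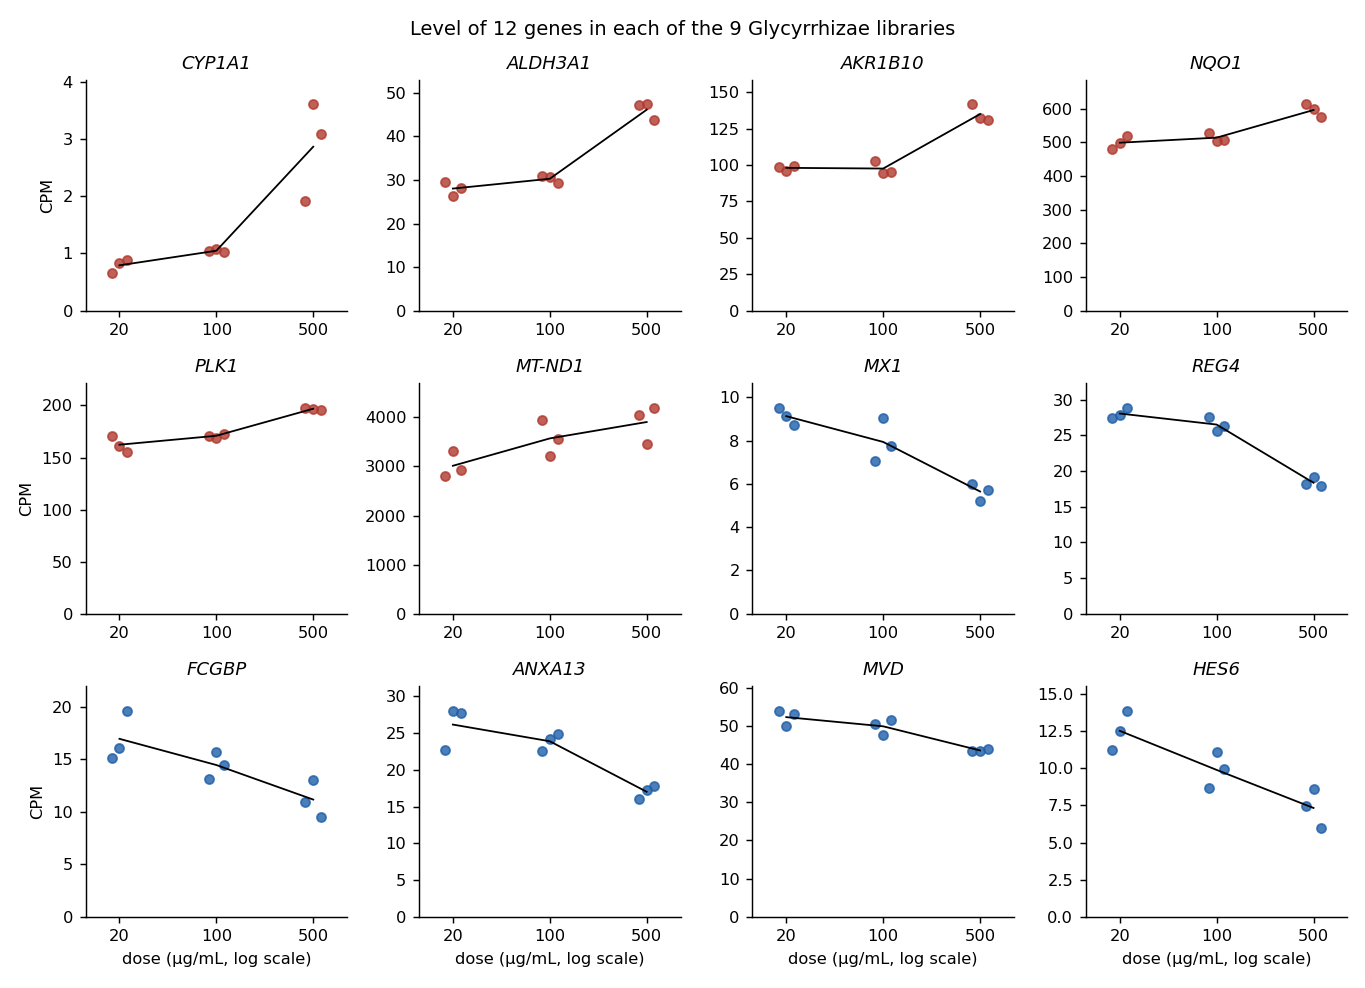
Level in CPM (vertical axes, from 0) of 12 genes in each of the 9 Glycyrrhizae libraries, by dose on a log scale (horizontal axes); points are libraries and lines join the means of 3. Red genes rose and blue genes fell with dose, and CYP1A1, ALDH3A1, AKR1B10 and REG4 show most of their change between 100 and 500 µg/mL.

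Many genes of cell division rose with dose. Cyclin-dependent kinase 1 and its partners drive entry into mitosis, and kinesins, checkpoint kinases and the anaphase-promoting complex carry it out. Of 35 tested genes of mitosis and G2/M, 18 rose and none fell, beside 2.11% of all genes that rose, and the slope was positive in all 35, between 0.02 and 0.15 with a median of 0.08. In 30 of the 35 the 500 µg/mL libraries lay above those at 20 µg/mL, beside 11.6% of all genes tested. The list holds genes whose levels move together through the cell cycle, so its members are not independent of each other.

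NUSAP1, a spindle microtubule binder, stood at 153, 153 and 144 CPM at 20 µg/mL, 166, 165 and 164 at 100 µg/mL and 184, 181 and 186 at 500 µg/mL. It rose by similar amounts in both steps without any overlap between doses, with a slope of 0.15 ± 0.0175 (adjusted p = 0.00219). PLK1, the polo-like kinase that promotes entry into mitosis, had 171, 161 and 155 CPM at 20 µg/mL, 171, 169 and 173 at 100 µg/mL and 198, 197 and 196 at 500 µg/mL (slope 0.14 ± 0.0209, adjusted p = 0.00419). Its 20 and 100 µg/mL libraries met at 171 CPM, and vehicle, at 176 ± 15.3 CPM, lay between 100 and 500 µg/mL. PLK1 overlaps ERN2, at 16.9 CPM, on the opposite strand. PTTG1, or securin, which restrains the separation of sister chromatids until anaphase, had a slope of 0.14 ± 0.0229 (adjusted p = 0.00674).

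The proliferation marker MKI67 had 987, 892 and 803 CPM at 20 µg/mL, 935, 945 and 896 at 100 µg/mL and 1036, 1020 and 1075 at 500 µg/mL, just under the threshold at an adjusted p of 0.0484, and it was not called without any 1 of 8 of the 9 libraries (all but 20 replicate 1) or in a model of all 60 libraries. CCNB1 and BIRC5 were at the low end of the list, with slopes of 0.02 each, and were not called. CENPE, with a slope of 0.14, was not called without 500 replicate 1, 500 replicate 3 or 20 replicate 3. The count of mitosis genes called was 6, 6 and 5 without 500 replicates 1, 2 and 3, and 4 without 20 replicate 3.

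Of 37 genes of DNA replication and G1/S, 6 rose, beside 2.11% of all genes, and none fell: POLE2 with a slope of 0.19, PRIM1 with 0.14, ORC1 with 0.13, CDC45 with 0.12, RFC3 with 0.11 and RRM2 with 0.09. They encode parts of the polymerases, the primase, the origin recognition complex, the replicative helicase, the clamp loader and ribonucleotide reductase. PRIM1 overlaps the abundant gene NACA on the same strand and is uncertain. The median slope of the list was 0.05, and PCNA and CCNE1 had slopes of 0.02 and -0.00. This count rested on few libraries: none of the 37 was called without 500 replicate 3, and 4 were called without 500 replicate 1, 20 replicate 2 or 20 replicate 3, and 9 without 20 replicate 1. The count was 10 with a replicate block or linear dose and 11 in a model of all 60 libraries.

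The cell cycle homology region bound by the DREAM and MuvB complexes at mitotic genes was searched as TTTGAA on both strands in the same windows. It was in 8.49% of all 10790 promoters, in 16.7% of 246 genes that rose, in 7.31% of 219 that fell and in 16 of 30 genes of the mitosis list. The 120 bases before the start of PLK1 (chr16:23678769-23678888, plus strand) are shown with the match in capitals, 29 bases before the start, as an example from a gene that rose.
PLK1: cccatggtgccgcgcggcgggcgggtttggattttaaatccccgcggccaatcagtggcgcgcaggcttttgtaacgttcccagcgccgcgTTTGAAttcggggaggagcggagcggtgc
NUSAP1, PTTG1 and CENPE held no match in this window.

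Of 13 tested genes encoded in mitochondria, which code for subunits of the respiratory chain and ATP synthase, 8 rose and none fell, beside 2.11% of all genes that rose, with a median slope of 0.15. MT-ND1 had 2804, 3308 and 2931 CPM at 20 µg/mL, 3942, 3205 and 3569 at 100 µg/mL and 4052, 3466 and 4201 at 500 µg/mL (slope 0.19 ± 0.0407, adjusted p = 0.0212). The 100 and 500 µg/mL libraries overlapped, and replicate 2 was the lowest at both. Of 42 nuclear genes for respiratory chain subunits, 1 rose, ATP5F1C with a slope of 0.07, and the median slope was -0.02. None of the 13 mitochondrial genes was called without 500 replicate 3, without 20 replicate 3 or in a model of all 60 libraries; 3 were called without 500 replicate 1 and 2 with linear dose, where MT-ND1 was not called. The call of ATP5F1C was lost without 500 replicate 1, 2 or 3 and without 20 replicate 2 or 3.

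Part of the interferon-stimulated genes fell. Type I interferon raises proteins that block viral replication, and cultured epithelial lines express a part of this set without added interferon. Of 36 tested genes, 10 fell and none rose, beside 1.87% of all genes that fell, and the median slope was -0.10. The genes that fell included MX1, OAS2, DDX60, IFI27, IFIT1, IRF9, OAS1, ISG15 and DTX3L. In 19 of the 36 the 500 µg/mL libraries lay below those at 20 µg/mL, beside 11% of all genes tested.

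MX1 (chr21:41420304-41459214, plus strand), an antiviral GTPase active against influenza, had 9.52, 9.13 and 8.72 CPM at 20 µg/mL, 7.04, 9.03 and 7.73 at 100 µg/mL and 5.99, 5.21 and 5.73 at 500 µg/mL. The libraries at 500 µg/mL lay below all others, and the slope was -0.34 ± 0.0551 (adjusted p = 0.00674), a fitted ratio of 0.624. Vehicle stood at 6.35 ± 0.28 CPM, closer to 500 than to 20 µg/mL. Ginseng means of MX1 were 5.95, 6.17 and 5.83 CPM at 20, 100 and 500 µg/mL. OAS2, a sensor of double-stranded RNA, DDX60, a helicase of the same defence, and IFI27, a mitochondrial interferon-induced protein, had slopes of -0.32, -0.27 and -0.26 and adjusted p-values of 0.0496, 0.0399 and 0.0484. XAF1, IFI44L, EPSTI1 and MX2 had steeper slopes, -0.79, -0.68, -0.55 and -0.45, and were not called. The count was 4, 2 and 1 without 500 replicates 1, 2 and 3, 5 without 100 replicate 1, 2 without 20 replicate 3 and 6 in a model of all 60 libraries, where OAS2 and IFI27 were not called. Among the named genes, OAS2 was not called without any 1 of 7 libraries (all but 100 replicate 2 and 20 replicate 2). DDX60 was not called without 500 replicate 1, 2 or 3, 100 replicate 1 or 20 replicate 3, and IFI27 without 500 replicate 2 or 3, 100 replicate 1 or 2, or 20 replicate 2 or 3.

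The interferon-stimulated response element was searched on both strands, as a pair of TTTC runs with any 2 bases between them. It was in 2.23% of all promoters, in 17 of 29 on the interferon list and in 4 of 8 of its called members, but in 3.2% of the 219 genes that fell. DDX60 (chr4:168318753-168318872, minus strand) and IFI27 (chr14:94110616-94110735, plus strand) held 2 matches each, shown in capitals, the first of them 88 and 108 bases before the start.
DDX60: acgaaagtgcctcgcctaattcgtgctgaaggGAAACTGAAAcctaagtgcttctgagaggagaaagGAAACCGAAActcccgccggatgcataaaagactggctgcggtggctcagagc
IFI27: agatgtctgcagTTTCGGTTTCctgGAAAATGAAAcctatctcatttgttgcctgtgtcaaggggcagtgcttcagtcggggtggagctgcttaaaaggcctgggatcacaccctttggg
MX1, whose call held under each alternative tried, held none in this window.

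**Figure D4:**
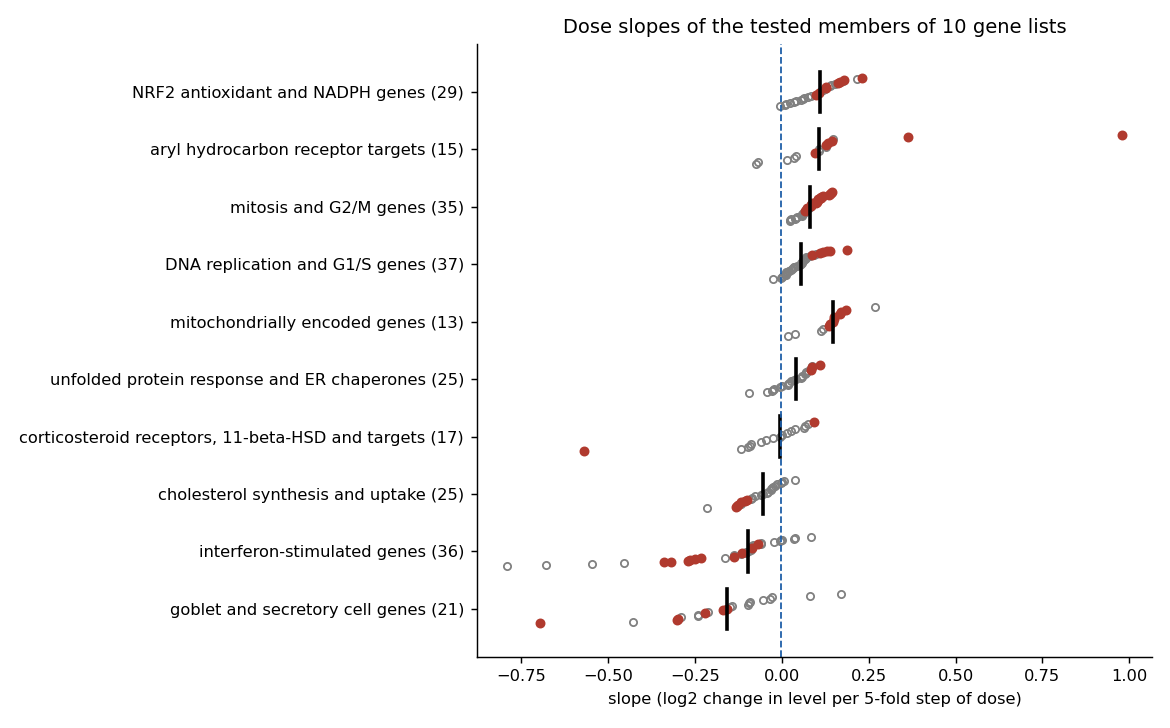
Dose slopes (horizontal axis, log2 change per 5-fold step of dose) of the tested members of 10 gene lists (vertical axis, number tested in brackets); each point is a gene, filled red where called, short black bars are list medians and the dashed line is the median of all 15328 genes. All 35 mitosis genes lie above 0, and the medians of the goblet and interferon lists, -0.16 and -0.10, lie below.

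Some genes of secretory intestinal cells fell. HT29 keeps features of goblet cells, which secrete mucus, and of enterocytes. Of 21 tested goblet and secretory genes, 6 fell and none rose, beside 1.87% of all genes that fell, with a median slope of -0.16: SPINK4, FCGBP, REG4, BCAS1, SPDEF and CREB3L1. SPDEF drives goblet cell maturation. In 12 of the 21 the 500 µg/mL libraries lay below those at 20 µg/mL, beside 11% of all genes tested.

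REG4 (chr1:119794018-119811660, minus strand), a secreted lectin of intestinal secretory cells, had 27.4, 27.9 and 28.9 CPM at 20 µg/mL, 27.6, 25.6 and 26.3 at 100 µg/mL and 18.1, 19.1 and 17.8 at 500 µg/mL. The lower doses overlapped and 500 µg/mL stood apart, with a slope of -0.30 ± 0.0432 (adjusted p = 0.00336) and a change of -0.53 ± 0.0565 from 100 to 500 µg/mL (adjusted p = 0.000713). Vehicle, at 35.8 ± 2.60 CPM, was above all 9 libraries. FCGBP, a mucus protein that binds IgG, had 15.2, 16.1 and 19.6 CPM at 20 µg/mL, 13.2, 15.8 and 14.5 at 100 µg/mL and 10.9, 13.1 and 9.50 at 500 µg/mL (slope -0.30 ± 0.0572, adjusted p = 0.011). The secretory cell factor CREB3L1, chosen after its values were seen, had 170, 165 and 164 CPM at 20 µg/mL, 156, 166 and 179 at 100 µg/mL and 130, 135 and 136 at 500 µg/mL, so that its fall lay in the upper step.

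MUC2, the main gel-forming mucin of the colon, was not called: it had 16.6, 15.4 and 15.0 CPM at 20 µg/mL, 15.8, 14.2 and 16.9 at 100 µg/mL and 15.7, 13.5 and 14.2 at 500 µg/mL (adjusted p = 0.483). The trefoil factor TFF1 had a slope of 0.17 and TFF3 one of -0.24, and neither was called. BCAS1 fell with a slope of -0.22 ± 0.0402 (adjusted p = 0.00929). SPINK4 had the steepest slope of the list, -0.70, at under 1 CPM in each library, with an adjusted p of 0.0484 that was lost without any 1 of 8 libraries (all but 20 replicate 2). FCGBP was not called without 500 replicate 3 or 20 replicate 3, and CREB3L1 not without any 1 of the 3 libraries at 500 µg/mL. The count on the list was 3, 4 and 2 without 500 replicates 1, 2 and 3, and 4 without 20 replicate 3. It was 10 with no filter on low counts, a replicate block or linear dose.

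Of 13 tested enterocyte and brush border genes, 3 fell and none rose, beside 1.87% of all genes that fell, while 7 slopes were positive and the median was 0.01. The genes that fell were carbonic anhydrase CA2 with a slope of -0.22, the glucose carrier SLC5A1 with -0.19 and villin (VIL1), which bundles the actin of microvilli, with -0.16. Outside that list, ANXA13, an annexin of intestinal epithelium named for the size of its slope, had 22.7, 28.0 and 27.7 CPM at 20 µg/mL, 22.6, 24.2 and 24.9 at 100 µg/mL and 16.0, 17.2 and 17.8 at 500 µg/mL (slope -0.31 ± 0.0468, adjusted p = 0.00439). SLC6A20, an imino acid carrier named by the same criterion, had 9.36, 9.02 and 9.06 CPM at 20 µg/mL, 8.15, 7.26 and 7.83 at 100 µg/mL and 5.35, 5.21 and 5.82 at 500 µg/mL, with no overlap between doses (slope -0.37 ± 0.047, adjusted p = 0.00221). PROM1, a protein of membrane protrusions, was the 1 gene called of 18 tested Wnt targets and intestinal stem cell genes and fell with a slope of -0.18 ± 0.0334 (adjusted p = 0.00933). Among 15 general markers of HT29 and colorectal epithelium, VIL1, the transcription factor HNF4A (slope -0.13) and the galectin LGALS4 (slope -0.11) fell and the adhesion protein CEACAM6 rose (slope 0.21 ± 0.0345). CA2, VIL1 and LGALS4 were not called without 500 replicate 3 or 20 replicate 3, HNF4A not without 500 replicate 3, and SLC5A1 not without 500 replicate 2 or 3 or 20 replicate 2 or 3.

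Part of the genes of cholesterol synthesis fell. The mevalonate pathway builds sterols from acetyl-CoA under the control of SREBF2. Of 25 tested genes, 6 fell and none rose, beside 1.87% of all genes that fell, with a median slope of -0.05: MVD, HMGCS1, TM7SF2, MVK, INSIG1 and LSS. MVD, which makes isopentenyl pyrophosphate, had 54.0, 49.9 and 52.996 CPM at 20 µg/mL, 50.4, 47.7 and 51.6 at 100 µg/mL and 43.4, 43.4 and 43.9 at 500 µg/mL (slope -0.13 ± 0.0248, adjusted p = 0.00996). The libraries at 500 µg/mL lay together below the rest and next to vehicle, at 43.9 ± 2.52 CPM. HMGCS1, the synthase at the entry to the pathway, had 301, 280 and 268 CPM at 20 µg/mL, 293, 268 and 260 at 100 µg/mL and 258, 225 and 227 at 500 µg/mL (slope -0.13 ± 0.0312, adjusted p = 0.0317). MVK and TM7SF2 overlap the genes MMAB and VPS51, and their values are uncertain. ACSS2, which makes acetyl-CoA from acetate and stands on the list of fatty acid synthesis, fell with a slope of -0.19.

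Without 500 replicate 3 none of the 25 cholesterol genes was called; the count was 3 without 500 replicate 2, 2 without 20 replicate 2 and 4 without 500 replicate 1, and it was 10 with a replicate block. MVD and TM7SF2 were not called without 500 replicate 3, HMGCS1 not without 500 replicate 2 or 3 or 20 replicate 1 or 2 or with all 60 libraries, ACSS2 not without 500 replicate 1 or 3, and MVK not without any 1 of 7 libraries (all but 100 replicates 1 and 3).

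In the steroid pathway for which licorice is best known, neither HSD11B2 nor the mineralocorticoid receptor gene NR3C2 was called. Of 17 tested genes for corticosteroid receptors, 11-beta-hydroxysteroid dehydrogenases and their targets, 1 rose and 1 fell. Over all genes tested, 2.11% rose and 1.87% fell. The median slope of the list was -0.01. HSD11B2 had 6.83, 7.18 and 6.41 CPM at 20 µg/mL, 6.97, 7.80 and 7.15 at 100 µg/mL and 6.67, 8.30 and 7.44 at 500 µg/mL; the doses overlapped (slope 0.07 ± 0.0494, adjusted p = 0.503). The glucocorticoid receptor gene NR3C1 had at most 0.0399 CPM and was not tested. The mineralocorticoid receptor gene NR3C2 had 5.64, 5.82 and 6.17 CPM at 20 µg/mL and 5.62, 4.93 and 5.09 at 500 µg/mL (adjusted p = 0.396). The corticosteroid-responsive genes FKBP5, TSC22D3 and SGK1 had slopes of 0.08, -0.06 and 0.00 and were not called (adjusted p = 0.219, 0.279 and 0.987).

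The 2 called genes of that list were ERRFI1, a feedback inhibitor of the EGF receptor, with a slope of 0.09, and CDKN1C, an inhibitor of cyclin-dependent kinases, with -0.57 at 0.666 to 2.08 CPM. ERRFI1 was not called without 500 replicate 2 or 3, and CDKN1C not without any 1 of 7 libraries (all but 100 replicate 1 and 20 replicate 2). None of 11 tested estrogen receptor and estrogen-responsive genes was called; the receptor gene ESR2 was under 1 CPM (adjusted p = 0.333), and ESR1, at 0.204 CPM or less, was not tested. Of 13 tested targets of the xenobiotic receptors PXR and CAR, 2 rose, UGT1A1 and TSKU, beside 2.11% of all genes, while 5 slopes were positive and the median was -0.01. CYP3A4, the main PXR target in liver and gut, had at most 0.154 CPM and was not tested, and CYP3A5 had a slope of -0.01 (adjusted p = 0.875). TSKU was not called without 500 replicate 1, 2 or 3 or 20 replicate 2 or 3, nor with all 60 libraries.

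Of the other genes with the largest positive slopes at 5 CPM or more, several act on the cytoskeleton, chromatin or the AP-1 complex. FOSL1, a subunit of AP-1, had 26.9, 23.9 and 23.0 CPM at 20 µg/mL, 31.1, 27.5 and 28.2 at 100 µg/mL and 33.0, 34.9 and 35.8 at 500 µg/mL, rising by about as much in either step (slope 0.24 ± 0.0326, adjusted p = 0.00246). COTL1, an actin-binding protein, had 164, 155 and 145 CPM at 20 µg/mL, 178, 168 and 171 at 100 µg/mL and 205, 201 and 216 at 500 µg/mL, with no overlap between doses (slope 0.21 ± 0.0236, adjusted p = 0.00219). HMGA1, a chromatin architectural protein, had 1711, 1506 and 1495 CPM at 20 µg/mL, 1807, 1615 and 1776 at 100 µg/mL and 2077, 2051 and 2148 at 500 µg/mL. Its slope was 0.21 ± 0.0281 (adjusted p = 0.00291).

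The other genes on this part of the list were FXYD5, a regulator of the sodium pump, and the secreted protein WFDC2, each with a slope of 0.23. The interleukin 15 receptor subunit IL15RA had a slope of 0.25, and NUCB2, C18orf54 and MTFR2 had 0.20 each. IL15RA was not called without 500 replicate 1, 2 or 3 or 20 replicate 3, NUCB2 not without 500 replicate 1 or 3 or 20 replicate 3, C18orf54 not without 500 replicate 3 and MTFR2 not without 500 replicate 1.

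Among the genes with the largest negative slopes, HES6, a basic helix-loop-helix factor of secretory and neural lineages, had 11.2, 12.5 and 13.9 CPM at 20 µg/mL, 8.66, 11.1 and 9.94 at 100 µg/mL and 7.45, 8.58 and 5.95 at 500 µg/mL. Its slope was -0.39 ± 0.0611 (adjusted p = 0.00673). DLL1, the Notch ligand of secretory precursors, chosen after its values were seen, had 1.14, 1.28 and 1.53 CPM at 20 µg/mL and 0.449, 0.431 and 0.428 at 500 µg/mL (slope -0.75, adjusted p = 0.0129). The long noncoding RNA LINC00261 had 13.1, 18.3 and 18.8 CPM at 20 µg/mL, 10.3, 16.2 and 15.5 at 100 µg/mL and 6.59, 9.05 and 9.50 at 500 µg/mL (slope -0.49 ± 0.0915, adjusted p = 0.00987). Replicate 1 was the lowest at each dose. The proton pump subunit ATP6V1B1 fell with a slope of -0.30 ± 0.0451 (adjusted p = 0.00381).

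ZACN, a ligand-gated channel, had the steepest slope of this group, -0.54, but it overlaps EXOC7 on the opposite strand, which is abundant at 99.2 CPM, and the strand setting of the counting is not given in the sources used here, so its value is uncertain. NEB (slope -0.34) likewise overlaps RIF1. The prolactin receptor PRLR and the adhesion protein FBLIM1 had slopes of -0.31 each. ZACN was not called without 500 replicate 3 or with all 60 libraries, NEB not without 500 replicate 1, 2 or 3 or 20 replicate 2, PRLR not without any 1 of the libraries at 500 µg/mL or 20 replicate 2 or 3, nor with DESeq2 or all 60 libraries, FBLIM1 not without 500 replicate 1 or 3 or 20 replicate 3, and DLL1 not without 500 replicate 3 or 20 replicate 3.

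Both the p53 and the PI3K list held 2 called genes, which fell. BTG2, an antiproliferative target of p53, had 39.6, 42.3 and 42.7 CPM at 20 µg/mL, 37.5, 37.6 and 42.7 at 100 µg/mL and 29.1, 33.4 and 31.8 at 500 µg/mL (slope -0.20 ± 0.036, adjusted p = 0.00852). SESN1, a sestrin that restrains mTORC1, had 37.5, 37.5 and 35.5 CPM at 20 µg/mL, 35.6, 33.8 and 34.6 at 100 µg/mL and 29.8, 30.2 and 26.8 at 500 µg/mL (slope -0.17 ± 0.0302, adjusted p = 0.00815). These were the 2 genes called among 25 tested p53-type targets, beside 1.87% of all genes that fell. The median slope of the p53-type targets was -0.03, with 8 positive slopes. On the list of PI3K, AKT and mTOR components, 2 of 25 fell, the mTOR inhibitor DEPTOR (slope -0.39) and the PI3K subunit PIK3R3 (slope -0.13), and none rose, beside 1.87% of all genes that fell. The median slope of that list was -0.00, and 12 of its 25 slopes were positive. TXNIP, a glucose-responsive arrestin that PI3K signalling represses, stayed between 46.0 and 48.8 CPM in all 9 libraries (adjusted p = 0.754). DEPTOR was not called without 500 replicate 1, 2 or 3 or 20 replicate 3, and PIK3R3 not without 500 replicate 1 or 3 or 20 replicate 3.

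Of 25 tested NF-kB targets and epithelial chemokines, 20 had a positive slope and 1 was called, beside 2.11% of all genes that rose. This was the siderophore binder LCN2 (slope 0.09, adjusted p = 0.0468), which lost its call without any 1 of 7 libraries (all but 20 replicate 1 and 500 replicate 2), with all 60 libraries and with linear dose. CXCL8, the neutrophil chemokine interleukin 8, had 24.2, 23.3 and 23.1 CPM at 20 µg/mL, 24.3, 26.8 and 29.6 at 100 µg/mL and 25.7, 26.4 and 30.6 at 500 µg/mL (adjusted p = 0.124). Vehicle stood at 6.26 ± 0.352 CPM, below all 9 libraries, a gap that was already present at 20 µg/mL.

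Ginseng served to ask whether the slopes were particular to Glycyrrhizae. The Ginseng series had no gene called in its own dose trend of 15580 genes with edgeR, and 589 had an unadjusted p under 0.05. The difference of the slopes, tested over 15832 genes, was called for 2 (0.0126%), 1 with the higher and 1 with the lower slope in Glycyrrhizae (0.00632% each), with 1103 at an unadjusted p under 0.05, and DESeq2 called 15. The slopes of the other 608 genes of the Glycyrrhizae trend were therefore not shown to differ between the extracts. Of 609 called genes with a Ginseng slope, 517 had a slope of the same sign there, with a median of 0.03 in the direction of the trend against 0.13 in Glycyrrhizae. ALDH3A1 and AKR1B10 had Ginseng slopes of 0.13 and 0.11, and NUSAP1, MX1 and REG4 had 0.01, -0.01 and 0.00.

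SELENOW, a small selenoprotein, was the gene with the lower slope. With Glycyrrhizae it had 123, 118 and 124 CPM at 20 µg/mL, 113, 111 and 110 at 100 µg/mL and 100.1, 102 and 101 at 500 µg/mL, falling without overlap at each step (slope -0.14 ± 0.017, adjusted p = 0.00221). With Ginseng it had 109, 118 and 119.6 CPM at 20 µg/mL, 116, 123 and 120.3 at 100 µg/mL and 124, 125 and 120.1 at 500 µg/mL. The difference of slopes was -0.18 ± 0.0256 (adjusted p = 0.00469).

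**Figure D5:**
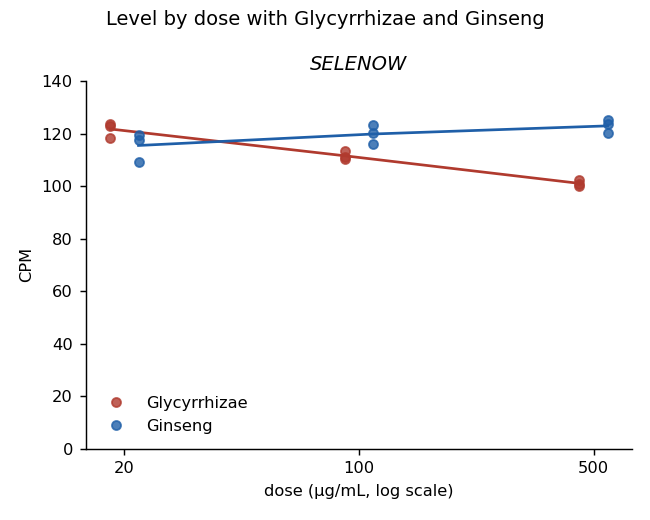
Level in CPM (vertical axis, from 0) of SELENOW by dose on a log scale (horizontal axis) in the Glycyrrhizae (red) and Ginseng (blue) libraries; points are libraries and lines join the means of 3. At 500 µg/mL the Glycyrrhizae libraries lie below the Ginseng libraries, and at 20 µg/mL the extracts overlap.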

How the data were processed

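Expected counts per Ensembl gene were deposited by the authors as a table of 273 columns; 60 are libraries of the series given here, and the other 213 were left unused. Per the submitters' processing notes, the tools were FastQC 0.11.9, Trim Galore 0.6.5, STAR 2.7.3a and RSEM 1.3.3 with GRCh38. Per the labels' protocols, a directional mRNA kit was used. Neither the annotation release nor the strand option of the counting is given in the sources used here. Of the deposited values above 0, 24.2% were not whole, since RSEM divides ambiguous reads, so paralogs and overlapping genes are uncertain.

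Counts were rounded and fitted with edgeR 4.0.16 (R 4.3.3; filterByExpr, minimum count 10; TMM; glmQLFit and glmQLFTest) on the 9 Glycyrrhizae libraries against log dose, with 7 residual degrees of freedom. Genes were called at an adjusted p under 0.05 (Benjamini-Hochberg over each fit's genes). Dose steps and curvature came from a model of the 3 group means, and the difference from Ginseng from an interaction over 18 libraries. SE is the slope divided by the square root of its F statistic; levels are CPM with TMM factors of all 60 libraries. The biological coefficient of variation was 0.0457. Symbols are current names joined by Ensembl identifier, or GENCODE 29 names where none was found. Coordinates are from GENCODE 29, joined by identifier. The code was tested on simulated data.

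Named genes were the 12 largest slopes in each direction (at least 5 CPM, no overlap of 500 and 20 µg/mL), up to 4 called members per list, up to 5 by curvature and 6 by difference from Ginseng, and a set of licorice-related genes; other list members are named as examples and were chosen after their values were seen. Members and lists were chosen with earlier results of these data known. Alternatives were other normalization, DESeq2 1.42.0, other count filters, each library left out, a replicate block, all 60 libraries, linear dose and, added after seeing the data, mitochondrially encoded genes left out. Some genes are not reported here, though they stay in the fits and in the counts over lists.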

Additional observations from a re-analysis of the deposited data

Results flagged for a closer look

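The slope of SELENOW differed between extracts by a test of the difference itself (edgeR quasi-likelihood interaction): the Glycyrrhizae minus Ginseng slope was -0.18 (adjusted p = 0.00469), against a Ginseng slope of 0.05 ± 0.0214. With any 1 of the 18 libraries left out, the difference was -0.19 to -0.16, with adjusted p-values up to 0.0273. In a model of all 60 libraries it was -0.18 with an adjusted p of 0.0661 and was not called.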

How the results depend on the processing

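The dose trend called 610 genes, and 1108 with no filter on low counts and 1241 with a replicate block; the block kept all 610. Residuals of same-numbered Glycyrrhizae libraries correlated at -0.0236 to 0.151, and no pair of doses had all 3 above 0.1. Between Glycyrrhizae and Ginseng, same-numbered libraries correlated at 0.0151 to 0.231 and differently numbered ones at -0.182 to 0.0678. The main model has no block, so anything that same-numbered libraries share stays in its spread. What the replicate numbers share is not stated. With 1 library left out the range was 117 to 1155. The 500 against 100 µg/mL comparison called 39 genes, 130 with DESeq2, 435 with no filter, 256 with the replicate block and 105 with all 60 libraries (5 to 87 with 1 library left out). The 100 against 20 µg/mL comparison called 0, 2 with DESeq2, 80 with no filter and 3 with the block (0 to 4). The 500 against 20 µg/mL comparison called 565, 1207 with no filter and 1259 with the block (115 to 955). Curvature called 1 gene, 4 with DESeq2, 76 with no filter, 3 with the block and 0 with a minimum count of 50 or all 60 libraries (0 to 1). The difference from Ginseng called 2 genes, 15 with DESeq2, 14 with no filter, 8 with all 60 libraries and 3 with the block (2 to 3). The cause of these shifts was not tested.

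Of 96 named genes called in the trend, 26 kept their call and direction under each alternative, 70 lost the call under at least 1 and none changed direction. For CYP1A1, among the 26, this rests on 15 of the 17 alternatives. Without 500 replicate 3, 67 lost the call, and without 20 replicate 3, 53. Genes not called changed sign near 0: SGK1 was at -0.00045 (minimum count 50) and -1.1e-05 (replicate block), and at -0.01981 to 0.02334 with 1 library left out, and CYP3A5 at 0.0041 (linear dose) and at -0.03845 to 0.00075 with 1 library left out. ARHGAP19-SLIT1, which is at 0 in 6 of the 9 libraries, moved to 0 with all 60 libraries, to -0.4072 to 0.447 with 1 library left out (-0.34, -0.35 and -0.41 without 20 replicates 1, 2 and 3), and to -1.34 with linear dose. Depth limits low genes most: XAF1, at a mean of 0.50 CPM, had a slope of -0.79 with an SE of 0.278.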

Other observations

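A few genes of protein folding, antigen presentation and protein breakdown rose, beside 2.11% of all genes that rose. Of 25 tested genes of the unfolded protein response and ER chaperones 3 rose and none fell, with 19 positive slopes and a median of 0.04: HSP90B1 (slope 0.11), PDIA3 (0.09) and CANX (0.08), which fold glycoproteins in the endoplasmic reticulum. Of 18 genes for MHC class I and peptide loading 3 rose, HLA-C (slope 0.12) and again PDIA3 and CANX, which stand on both lists; 13 of the 18 slopes were positive, with a median of 0.03. Of 35 proteasome subunits 3 rose, PSMB2 (slope 0.10), PSME3 (0.10) and PSMC4 (0.09), while 23 of the 35 slopes were positive, with a median of 0.02. Each of these calls was lost without 500 replicate 3, and each but that of HLA-C also without 20 replicate 3. The call of PSME3 was also lost with linear dose.

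Of 13 tested genes of iron handling 2 fell, beside 1.87% of all genes that fell, while 7 slopes were positive and the median was 0.01. The 2 encode proteins of iron export from enterocytes: ferroportin, SLC40A1 (slope -0.17, adjusted p = 0.0115), and the ferroxidase hephaestin, HEPH (slope -0.13, adjusted p = 0.0355), by the edgeR quasi-likelihood test. SLC40A1 had 105, 124 and 120.2 CPM at 20 µg/mL, 98.3, 117 and 109 at 100 µg/mL and 90.6, 92.8 and 94.8 at 500 µg/mL. Its call was lost without 500 replicate 3 or 20 replicate 3, and that of HEPH without 500 replicate 1, 2 or 3 or 20 replicate 1 or 2. Of 15 tested replication-dependent histone genes, whose transcripts lack a poly(A) tail and are poorly caught by mRNA libraries, 13 had negative slopes, with a median of -0.15, while 1 fell (H4C14) and 1 rose, beside 1.87% and 2.11% of all genes. The call of H4C14 was lost without 500 replicate 1, 2 or 3, without 20 replicate 1 or 3 and with all 60 libraries.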
